A study of Mus musculus with 6 samples.

Results

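Mitochondria of the heart fuse, divide and are cleared by genes whose levels were compared here between hearts of mice with chronic kidney disease (CKD) and hearts of sham mice. The genes described are 10, chosen by name for these roles: Mfn1, Mfn2 and Opa1 of fusion, Oma1 of OPA1 cleavage, Dnm1l, Fis1 and Mff of fission, and Pink1, Bnip3 and Fundc1 of mitophagy. Of these 10 genes, 9 were measured by a named probe set, each by a single one, among 19505 genes in all, and Pink1 was not analysed here. Total RNA came from heart tissue of Balb/c mice, the chambers not stated, 3 sham and 3 CKD, with 1 Affymetrix Clariom S array per mouse. CKD mice had a 5/6 nephrectomy, in which part of the cortex of the right kidney was electrocoagulated and the left kidney was removed in a later operation, whereas sham mice only had the abdomen opened. Per the methods, Balb/c mice were males of 8 weeks at surgery, but the text does not name the set of mice, the diet period or the time of collection behind the arrays. The values are log2 levels after robust multiarray averaging by the authors, which sets all arrays to a common distribution, so a level is compared between hearts for 1 gene and never between genes. A gene passed the criterion of the study at a fold change over 1.5 (0.58 on the log2 scale) with an unadjusted p under 0.05, here from limma.

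In a muscle cell, the mitofusins MFN1 and MFN2 join the outer membranes of mitochondria, and OPA1 joins the inner membranes and keeps the cristae tight. The protease OMA1 cuts OPA1 under stress, which halts fusion of the inner membrane. The GTPase DRP1, encoded by Dnm1l, is recruited from the cytosol by receptors such as MFF and pinches mitochondria apart, with FIS1 as another protein of the outer membrane in this system. Damaged mitochondria are then handed to autophagy, either by the kinase PINK1 with the ubiquitin ligase Parkin or by receptors of the outer membrane that bind LC3, among them BNIP3 and FUNDC1. Loss of both mitofusins together, or of DRP1, in the adult mouse heart is known to damage the muscle, and BNIP3 is induced by hypoxia through HIF1.

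Promoters of all 10 genes were found in RefSeq (15 annotated starts, build GRCm38.p6, from 250 bases before to 50 bases after the start) and were searched on both strands for short motifs of regulators that bear on the comparison. The palindromic motif of NRF1, written out in capitals in the Opa1 promoter below, lay in 1 of these 10 genes, Opa1, against 1.07% of all 27025 genes (0.971% of 32851 promoters). A looser form, which frees 1 base and includes the first, lay in promoters of Bnip3, Oma1, Opa1 and Pink1, against 5.19% of all genes (4.6% of promoters). The HIF1 core ACGTG lay in promoters of Bnip3 and Mfn2, against 21.8% of genes (19.6% of promoters), the ETS core CCGGAAG in those of Dnm1l, Fis1 and Mfn1, against 9.93% (8.86%), and neither the ERR site AAGGTCA (5.38% of genes, 4.72% of promoters) nor the IRF1 motif of GAAA repeated after a gap of 2 bases (3.99%, 3.44%) was found in any of them. These matches describe letters and are not binding sites. The promoters of Opa1 and Oma1 are shown as examples of both forms of the NRF1 motif, and that of Bnip3 because genes of the HIF1 response are. Capitals mark the NRF1 motif in Opa1 (chr16:29579084-29579383, + strand), its looser form in Oma1 (chr4:103313596-103313895, + strand), and in Bnip3 (chr7:138909457-138909756, - strand) the overlapping ACGTG matches of both strands.
Opa1: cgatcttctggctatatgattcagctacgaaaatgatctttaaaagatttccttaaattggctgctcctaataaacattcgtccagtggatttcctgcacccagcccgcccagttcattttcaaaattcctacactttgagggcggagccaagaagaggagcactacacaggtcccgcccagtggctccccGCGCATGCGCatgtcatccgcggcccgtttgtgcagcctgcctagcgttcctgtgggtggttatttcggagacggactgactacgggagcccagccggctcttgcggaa
Oma1: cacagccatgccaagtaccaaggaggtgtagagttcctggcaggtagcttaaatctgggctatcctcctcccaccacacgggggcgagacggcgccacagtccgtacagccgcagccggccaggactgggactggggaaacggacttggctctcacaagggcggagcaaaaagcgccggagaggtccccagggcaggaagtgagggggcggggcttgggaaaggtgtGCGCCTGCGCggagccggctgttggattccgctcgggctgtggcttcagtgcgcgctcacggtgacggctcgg
Bnip3: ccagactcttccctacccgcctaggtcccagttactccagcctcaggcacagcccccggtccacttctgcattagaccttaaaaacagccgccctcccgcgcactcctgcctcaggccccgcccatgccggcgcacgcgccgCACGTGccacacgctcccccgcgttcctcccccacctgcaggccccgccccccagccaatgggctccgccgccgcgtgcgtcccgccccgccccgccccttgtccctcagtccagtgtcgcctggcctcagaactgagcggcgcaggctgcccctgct

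The tissue and the arrays were checked first. All 12 listed markers of heart muscle cells were measured, with mean log2 levels between 13.75 and 19.91, and their mean per array lay between 17.63 and 17.68 in sham and between 17.60 and 17.89 in CKD hearts. Of these, Tnnt2, Myl2, Pln and Atp2a2 lay near the top of the scale, where the highest mean of any gene was 19.92. Their pooled SDs were 0.02 to 0.04, so a difference in muscle content could be hidden in them. Pairs of arrays correlated between 0.981 and 0.995 over all genes, and array medians lay between 4.83 and 4.86. The groups were not alike in other tissue. Mean levels of 7 atrial markers ran from 6.66 to 10.01 in sham and from 9.27 to 13.00 in CKD hearts, with 3 of 7 past the criterion as higher (Myl4, Sln and Bmp10), and the highest values were those of sham replicate 1 and CKD replicate 3. Mean levels of 8 macrophage markers ran from 8.76 to 10.43 in sham and from 8.62 to 9.75 in CKD hearts, with 2 of 8 lower (Adgre1 and C1qb). Those of 9 adipocyte markers ran from 5.61 to 6.25 and from 6.27 to 7.49, with 2 of 9 higher (Car3 and Ucp1). Ucp1 was dim, with means of 2.45 in sham and 3.54 in CKD hearts, where the median of all gene means was 4.94. Of the 12 heart muscle markers, 1 was higher (Tcap), none was lower past the criterion, and 9 had a log2 fold change below zero. Higher too were 2 of 7 markers of smooth muscle and pericytes (Myh11 and Cnn1) and 1 of 2 measured erythroid markers (Alas2). Not all markers of these lists went 1 way. The log2 fold change was below zero for 1 of 7 atrial markers (Nppa, -0.52) and 1 of 7 smooth muscle and pericyte markers (Pdgfrb, -0.19). It was above zero for 1 of 8 macrophage markers (Cd163, 0.61). Of all genes, 3.13% were higher and 3.19% lower past the criterion. The Y-linked gene Uty had log2 levels of 4.48, 2.08 and 2.17 in sham replicates 1 to 3 and of 4.67, 4.29 and 7.97 in CKD replicates 1 to 3, although all mice are described as male. Eif2s3y varied alike, at 4.24, 1.24 and 1.26 in sham and 4.02, 4.04 and 7.90 in CKD hearts, and both genes and Kdm5d passed the criterion as higher. The groups can therefore not be taken as matched for sex or free of RNA from other samples, which was not tested. The part of these differences in the results below was not tested beyond leaving arrays out. In bulk heart tissue, fewer cells of a type and less RNA per cell cannot be told apart.

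None of the 9 measured genes passed the criterion, which 6.32% of all genes did (3.13% higher and 3.19% lower). With only 9 genes, a count of 0 does not set them apart from that share. By limma, 0 of the 9 had an unadjusted p under 0.05, against 9.14% of all genes, and by the methods' t-test also 0. None had an adjusted p under 0.05, which 0.0103% of all genes had. The log2 fold changes ran from -0.33 for Fis1 to 0.22 for Mfn1, with 4 above and 5 below zero and a median of -0.02, beside a median of 0.00 over all genes. Fusion genes Mfn1, Mfn2 and Opa1 each had a mean slightly higher in CKD and the fission genes Dnm1l, Fis1 and Mff each had one slightly lower, all within the spread between hearts. The signs of Mfn1, Mfn2, Dnm1l, Mff, Bnip3 and Fundc1 turned under at least 1 other processing or with 1 array left out, and those of Opa1, Oma1 and Fis1 did not. The 95% intervals of Dnm1l and Mff lay wholly inside the 1.5-fold limits, as did those of 22.8% of all genes. For the other 7 genes a 1.5-fold change in at least 1 direction lay within the interval, so at this number of arrays it could not be told from no change.

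**Figure D1:**
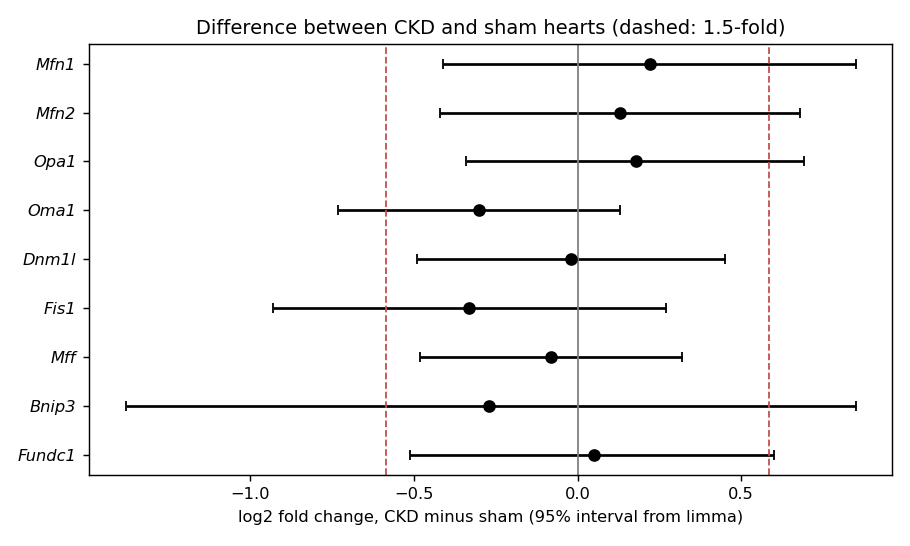
Log2 fold change (x axis, CKD minus sham) of each of the 9 measured genes (y axis) with its 95% interval from limma over 3 sham and 3 CKD hearts; dashed lines mark a 1.5-fold change. All 9 intervals include zero, those of Mff and Dnm1l stay inside the dashed lines, and that of Bnip3 is the widest, from -1.38 to 0.85.

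Mfn1 (Entrez gene 67414), a mitofusin, had log2 levels of 14.50, 14.28 and 14.37 in sham replicates 1 to 3 and of 14.03, 14.62 and 15.16 in CKD replicates 1 to 3. The sham hearts lay close together, and the CKD hearts spread to both sides of them, with replicate 1 below and replicates 2 and 3 above all sham hearts. Sham hearts averaged 14.38 ± 0.11 and CKD hearts 14.60 ± 0.57 (SD, n = 3 each), a log2 fold change of 0.22 (standard error, SE, 0.28, limma adjusted p = 0.872). It was 0.51 without CKD replicate 1 and -0.06 without CKD replicate 3. Mfn2 (Entrez gene 170731), the mitofusin that also tethers mitochondria to the endoplasmic reticulum, had log2 levels of 12.50, 13.17 and 12.89 in sham and of 13.01, 12.66 and 13.28 in CKD hearts. The groups overlapped over most of their range, and the log2 fold change was 0.13 (SE 0.25, 95% interval -0.42 to 0.68, limma adjusted p = 0.916).

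Opa1 (Entrez gene 74143), the fusion GTPase of the inner membrane, had log2 levels of 13.84, 13.70 and 13.87 in sham and of 13.54, 14.18 and 14.22 in CKD hearts. As with Mfn1, CKD replicate 1 lay below and CKD replicates 2 and 3 lay above every sham heart. The log2 fold change was 0.18 (SE 0.23, 95% interval -0.34 to 0.69, limma adjusted p = 0.872), and it was 0.40 without CKD replicate 1. Oma1 (Entrez gene 67013), which cleaves OPA1, had log2 levels of 8.93, 9.28 and 9.32 in sham and of 8.89, 8.82 and 8.92 in CKD hearts. All CKD hearts were below all sham hearts, but sham replicate 1 exceeded CKD replicate 3 by no more than the last digit of the deposited values. The log2 fold change was -0.30 (0.812-fold, 95% interval 0.603 to 1.09), with a standard error of 0.19 and an adjusted p of 0.695 from limma. An exact two-sided permutation test gave p = 0.1, the smallest that 3 hearts against 3 allow, and 6.71% of all genes had groups that did not overlap with CKD lower, while 6.93% had CKD higher, as none of the 9 did. Of the 9 genes, Oma1 had the smallest p. Without sham replicate 1 its log2 fold change was -0.42, and over each array left out it stayed between -0.42 and -0.23.

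Dnm1l (Entrez gene 74006), the gene of DRP1, had log2 levels of 13.76, 13.49 and 13.84 in sham and of 13.39, 13.87 and 13.77 in CKD hearts. The means were 13.70 ± 0.18 and 13.68 ± 0.25 (SD, n = 3 each), and the log2 fold change was -0.02 (95% interval -0.49 to 0.45, adjusted p = 0.989 from limma). Its 2 groups covered nearly the same range. Mff (Entrez gene 75734), the receptor that recruits DRP1, had log2 levels of 16.05, 16.00 and 15.83 in sham and of 15.90, 15.91 and 15.84 in CKD hearts. It was the steadiest of the 9 genes, with a spread within groups of 0.09 (pooled SD), smaller than in all but 2.10% of genes, and a log2 fold change of -0.08 (95% interval -0.48 to 0.32, adjusted p = 0.936). Fis1 (Entrez gene 66437), the outer membrane protein of fission, had log2 levels of 8.38, 8.66 and 8.57 in sham and of 8.78, 7.81 and 8.02 in CKD hearts. CKD replicate 1 was the highest of all hearts, and CKD replicates 2 and 3 lay below every sham heart. The log2 fold change was -0.33 (0.794-fold, 95% interval 0.524 to 1.2), with an adjusted p of 0.769 from limma. Fis1 was the only one of the 9 genes to pass the criterion under any alternative tried, without CKD replicate 1 (-0.62 on the log2 scale, with an unadjusted p of 0.0148 from limma).

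Bnip3 (Entrez gene 12176), a mitophagy receptor, had log2 levels of 11.84, 13.41 and 13.33 in sham and of 13.49, 11.89 and 12.40 in CKD hearts. Within both groups hearts differed by more than 1.5 on the log2 scale, and sham replicate 1 and CKD replicate 2 had nearly the same low level. The pooled SD within groups was 0.85, larger than in 98.3% of genes, against 0.09 to 0.41 for the other 8 genes. The log2 fold change was -0.27 (0.831-fold, 95% interval 0.384 to 1.80, adjusted p = 0.915 from limma). It was -0.78 without sham replicate 1, -0.71 without CKD replicate 1, -0.03 without sham replicate 3 and 0.09 without CKD replicate 2, so its size depended on single arrays. Fundc1 (Entrez gene 72018), an X-linked mitophagy receptor, had log2 levels of 12.74, 12.06 and 12.36 in sham and of 12.11, 12.72 and 12.47 in CKD hearts. Its groups covered the same range, and the log2 fold change was 0.05 (SE 0.25, 95% interval -0.51 to 0.60, limma adjusted p = 0.974).

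**Figure D2:**
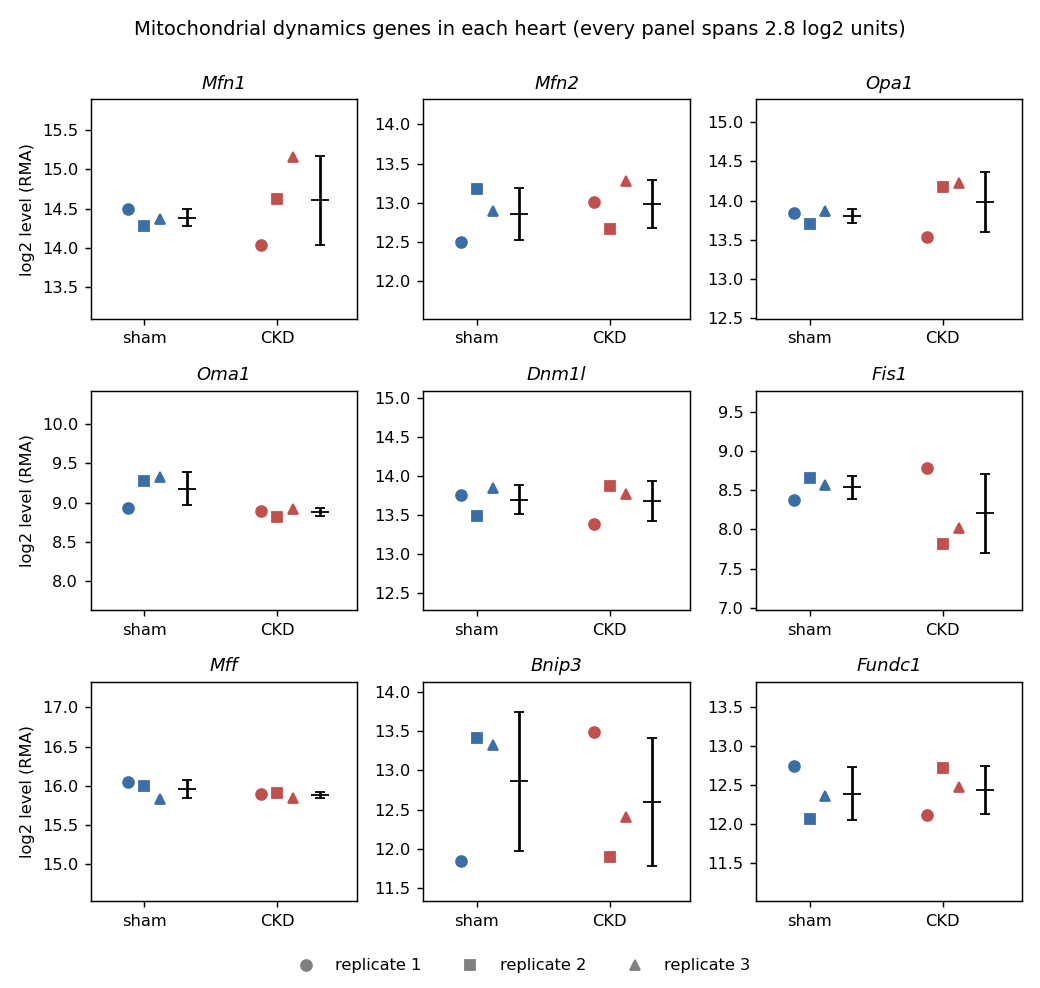
Log2 level (y axis, after robust multiarray averaging) of the 9 measured genes in each sham (blue) and CKD (red) heart; symbols mark the replicate, and the bar beside each group gives the mean ± SD of 3 hearts. Every panel spans the same number of log2 units. Bnip3 varies most within each group, Mff least, and Oma1 is the gene whose groups do not overlap.

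Hearts of the same group differed in a shared way in Mfn1, Opa1, Dnm1l, Fundc1, Fis1 and Bnip3, whereas Mfn2, Oma1 and Mff did not follow this pattern. CKD replicate 1 and sham replicate 2 were the 2 lowest hearts for Mfn1, Opa1, Dnm1l and Fundc1, and they were the 2 highest for Fis1 and Bnip3. CKD replicate 2 showed the opposite: it was the highest heart for Dnm1l, the lowest for Fis1 and the second highest for Fundc1, Mfn1 and Opa1. Deviations from the mean of each gene over the 6 arrays were -0.89 for Bnip3 and 0.33 for Fundc1 in sham replicate 1, -0.84 and 0.31 in CKD replicate 2, and 0.76 and -0.30 in CKD replicate 1. The mean of the macrophage markers was lowest in the hearts where Bnip3 was lowest, with 8.76 in sham replicate 1, 8.62 in CKD replicate 2 and 9.18 in CKD replicate 3. It was 10.43, 10.23 and 9.75 in sham replicates 2 and 3 and CKD replicate 1. Other marker lists parted the same hearts: sham replicate 1 and CKD replicates 2 and 3, the 3 hearts with the lowest Bnip3, had the highest means of the atrial markers (10.01, 9.51 and 13.00, against 7.58, 6.66 and 9.27 in sham replicates 2 and 3 and CKD replicate 1). The same held for the 2 measured erythroid markers (7.54, 8.28 and 9.04, against 5.68, 5.80 and 6.96) and for the fibroblast markers (11.26, 11.23 and 11.36, against 10.91, 10.59 and 10.89). The remaining marker lists did not part the hearts in this way. These were means of lists, and while both erythroid markers followed them, some other single markers did not. Among fibroblast markers, Dcn was lowest in sham replicate 1 (19.08) and Col1a1 highest in CKD replicate 1 (6.62). The atrial marker Nppa was lowest in CKD replicate 2 (17.52). The macrophage marker Cd163 was higher in CKD replicate 3 (7.62) than in sham replicates 2 and 3 (7.13 and 7.19). The part of the macrophage, atrial, erythroid and fibroblast lists in the levels of Bnip3 was not tested.

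**Figure D3:**
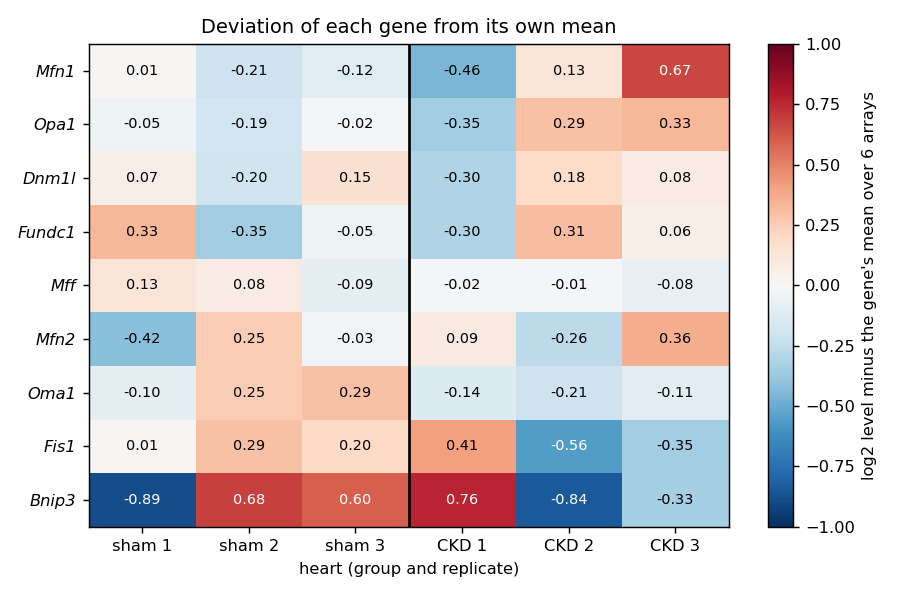
Log2 level of each gene (rows) in each heart (columns) minus the mean of that gene over the 6 arrays, with the value printed in each cell; the black line parts sham from CKD hearts. CKD replicate 1 and sham replicate 2 show low Mfn1, Opa1, Dnm1l and Fundc1 beside high Fis1 and Bnip3, and CKD replicate 2 shows the reverse.

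Of the 36 pairs of these genes, 3 had a correlation of at least 0.90 in size over the 6 hearts. Bnip3 and Fundc1, both LC3-binding receptors, ran against each other, with Pearson's r = -0.95 (exact permutation p = 0.00972, adjusted p = 0.117 over 36 pairs) and Spearman's rho = -0.94 (exact permutation p = 0.0167, adjusted p = 0.200). Without the 2 hearts farthest from the median of Bnip3, sham replicate 1 and CKD replicate 2, r was -0.81. Opa1 and Fis1 had r = -0.95 (exact permutation p = 0.00694, adjusted p = 0.117) and rho = -0.89 (exact permutation p = 0.0333, adjusted p = 0.300), and r was -0.84 without CKD replicates 2 and 3. The fusion genes Mfn1 and Opa1 ran together, with r = 0.90 (exact permutation p = 0.00556, adjusted p = 0.117) and rho = 0.94 (exact permutation p = 0.0167, adjusted p = 0.200), and r was 0.90 without CKD replicates 1 and 3. With the group means taken out, r was -0.95, -0.94 and 0.89 for these pairs, so the relations lay within the groups. No pair passed after adjustment. A correlation of this size was also not rare for these genes on these arrays: between 0.938% (Mff) and 4.19% (Fis1) of all other genes had an absolute r of at least 0.90 with a given member.

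**Figure D4:**
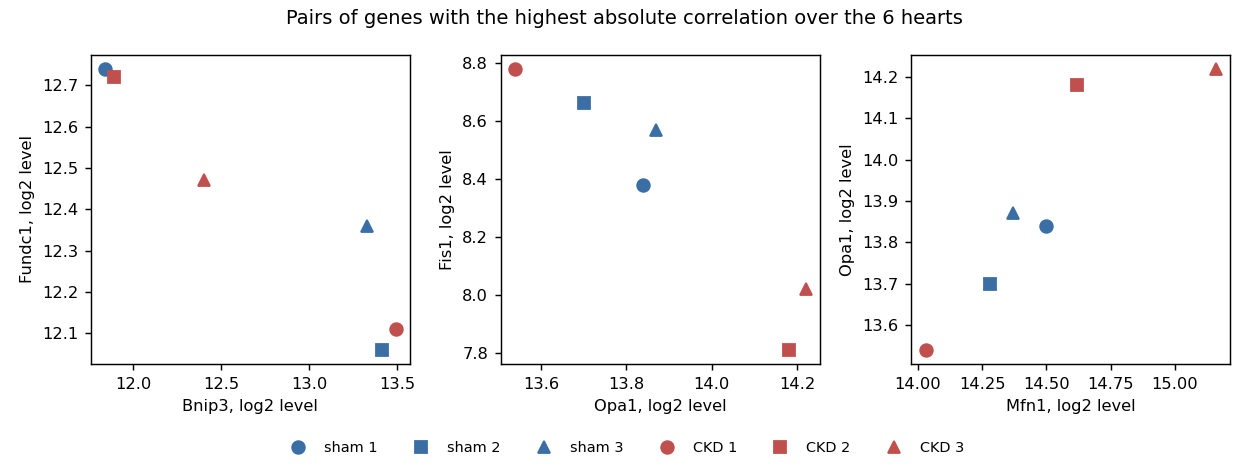
Log2 levels of 3 pairs of genes in the 6 hearts, 1 point per heart, with colour for the group and symbol for the replicate. Bnip3 against Fundc1 and Opa1 against Fis1 fall, Mfn1 against Opa1 rises, and in every panel sham and CKD hearts lie along a shared trend.

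The wider pathway was described with 142 measured genes of 150 listed, the members left out: 3 were higher in CKD hearts (2.11%, against 3.13% of all genes), 7 were lower (4.93%, against 3.19%), and none had an adjusted p under 0.05 from limma, where 2 of all genes had one. Without the regulators and HIF1 targets, 112 genes of dynamics, mitophagy and autophagy remained, with 1 higher (0.893%) and 2 lower (1.79%). In the lists, which here include the members, none of 12 genes of fusion passed, and the smallest p was that of Msto1, a factor of mitochondrial shape (0.55 on the log2 scale, SE 0.30, limma adjusted p = 0.637). Among 10 proteases and prohibitins of the inner membrane and matrix, Clpp, a matrix protease, was lower. Its log2 levels were 11.06, 11.52 and 11.52 in sham and 10, 10.74 and 10.71 in CKD hearts. The groups did not overlap, as in 6.71% of all genes with CKD lower. Its log2 fold change was -0.88 (SE 0.26, limma adjusted p = 0.373), and it passed the criterion under all 17 alternatives of test, normalization, filter or arrays. The protease Yme1l1, which also cuts OPA1, was at 13.31, 13.04 and 12.73 in sham and at 13.52, 13.36 and 13.36 in CKD hearts. The difference of 0.39 (SE 0.21) did not pass, and the groups did not overlap, as in 6.93% of all genes with CKD higher. The prohibitin Phb, a scaffold of the inner membrane, differed by -0.53 (SE 0.24) and did not pass either.

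None of 15 genes of fission passed, with a median log2 fold change of -0.18 and 12 values below zero, where 9886 of all 19505 genes were below zero. The list as a whole was not tested. The smallest p there and among 14 genes that modify DRP1 was that of Akap1, an anchor of protein kinase A that restrains DRP1, with log2 levels of 11.38, 11.73 and 11.92 in sham and of 11.48, 10.79 and 11.08 in CKD hearts. Its fold change of -0.56 (SE 0.24, limma adjusted p = 0.526) fell just short of the fold limit. None of 18 measured genes of the PINK1 and Parkin route passed, with log2 fold changes between -0.31 and 0.31, and the smallest p was that of Tbk1, a kinase that acts on mitophagy adaptors (0.31, SE 0.20, limma adjusted p = 0.699). Of 12 mitophagy receptors and their partners none passed either, and the smallest p was that of Nipsnap1, a mitochondrial protein that recruits autophagy adaptors (0.40, SE 0.22, limma adjusted p = 0.646), with CKD hearts above sham hearts by no more than the last digit (3.66 in CKD replicate 1 against 3.65 in sham replicate 3), as 6.93% of all genes had CKD hearts above. Bnip3l, the relative of Bnip3 known as NIX, had log2 levels of 12.04, 11.65 and 11.91 in sham and of 11.80, 12.22 and 12.67 in CKD hearts (log2 fold change 0.36, SE 0.25). Among 11 genes of MICOS and the cristae none passed, and Mtx1 had the smallest p (-0.36, SE 0.19, limma adjusted p = 0.614). Among 6 genes listed under mitochondrial transport none passed, with values between -0.31 and 0.36. Miga2, a factor of mitochondrial fusion rather than of transport, had the smallest p there (-0.31).

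Of 32 genes of core autophagy, 1 was higher (3.12%, against 3.13% of all genes) and 1 was lower (3.12%, against 3.19%). Gabarapl1, a relative of LC3 that coats the growing autophagosome, had log2 levels of 10.68, 11.03 and 10.58 in sham and of 11.44, 11.13 and 11.65 in CKD hearts. Every CKD heart lay above every sham heart, as in 6.93% of all genes, and the log2 fold change was 0.64 (SE 0.22, limma adjusted p = 0.448). Atg10, which helps to conjugate ATG12, had log2 levels of 10.59, 10.65 and 10.59 in sham and of 10.29, 9.63 and 9.86 in CKD hearts (-0.68, SE 0.21, limma adjusted p = 0.411). Its groups did not overlap either, as in 6.71% of all genes with CKD lower. Leaving out sham replicate 3 (0.55) or CKD replicate 3 (0.52) took Gabarapl1 below the criterion, and leaving out CKD replicate 2 (-0.54) did so for Atg10. With sham replicate 1 and CKD replicate 3 both left out, the values were 0.48 and -0.66, and neither passed.

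Among 16 upstream regulators, Ppargc1a and Nrf1 were lower (12.5%, against 3.19% of all genes). The paper had already reported PGC1α and its target genes as inhibited on these arrays. As the list was chosen with earlier results known, its share is a description only. Sirt1, a deacetylase, was higher (6.25%, against 3.13%). Ppargc1a, the gene of PGC1α, had log2 levels of 15.51, 15.56 and 15.86 in sham and of 14.72, 15.16 and 15.10 in CKD hearts, and Nrf1, the nuclear respiratory factor, had 6.84, 6.59 and 6.14 against 5.64, 5.89 and 6.13. Both had groups that did not overlap, Nrf1 by the last digit, as had 6.71% of all genes with CKD lower. Regulation of the members by NRF1 was not tested. The log2 fold change was -0.65 (SE 0.21, limma adjusted p = 0.424) for Ppargc1a and -0.64 (SE 0.24, limma adjusted p = 0.466) for Nrf1. The call for Ppargc1a was lost when sham replicate 3 (-0.54) or CKD replicate 1 (-0.51) was left out. That for Nrf1 was lost when sham replicate 1 (-0.48), sham replicate 2 (-0.60) or CKD replicate 1 (-0.51) was left out or both sham replicate 1 and CKD replicate 3 were (-0.60). With all arrays kept it was also lost by the methods' t-test, with array weights (-0.47) and with the replicate number as a block (unadjusted p = 0.0535 from limma). Sirt1 had a log2 fold change of 0.60 (SE 0.26, limma adjusted p = 0.536) that met the fold limit narrowly and missed the criterion with any single array but CKD replicate 1 left out, with values between 0.33 and 0.66 there. With all 6 arrays kept, Sirt1 also missed it by the methods' t-test, with median centring and with the dimmest 25% or 50% of genes dropped.

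Of 15 targets of HIF1 other than Bnip3, 1 was higher and 3 were lower, around a median of -0.08 on the log2 scale. Among all genes 3.13% were higher and 3.19% lower, and the counts in this list were not tested against these shares. Egln3, a prolyl hydroxylase that acts on HIF1, had log2 levels of 12.85, 13.52 and 13.54 in sham and of 12.19, 12.69 and 12.30 in CKD hearts (-0.91, SE 0.25, limma adjusted p = 0.346). The groups did not overlap, as in 6.71% of all genes with CKD lower. Egln3 passed under the same 17 alternatives. The subunits P4ha1 (-0.77, SE 0.30) and P4ha2 (-0.88, SE 0.35) of the collagen prolyl hydroxylase were lower, with levels in sham replicate 1 closer to those of CKD hearts than to the other sham hearts. Ndrg1, a stress-induced gene, was higher (0.62, SE 0.24). With all arrays kept, P4ha1, P4ha2 and Ndrg1 missed the criterion by the methods' t-test, and all 3 calls also depended on single arrays. P4ha1 missed the criterion without sham replicate 2 (-0.64), sham replicate 3 (-0.55), CKD replicate 1 (-0.67) or CKD replicate 3 (-0.81), and P4ha2 without sham replicate 2 (-0.70), sham replicate 3 (-0.61), CKD replicate 2 (-0.85) or CKD replicate 3 (-0.82). Ndrg1 missed it without sham replicate 1 (0.55), sham replicate 3 (0.63), CKD replicate 1 (0.58) or CKD replicate 3 (0.45), and with sham replicate 1 and CKD replicate 3 both left out (0.37).

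**Figure D5:**
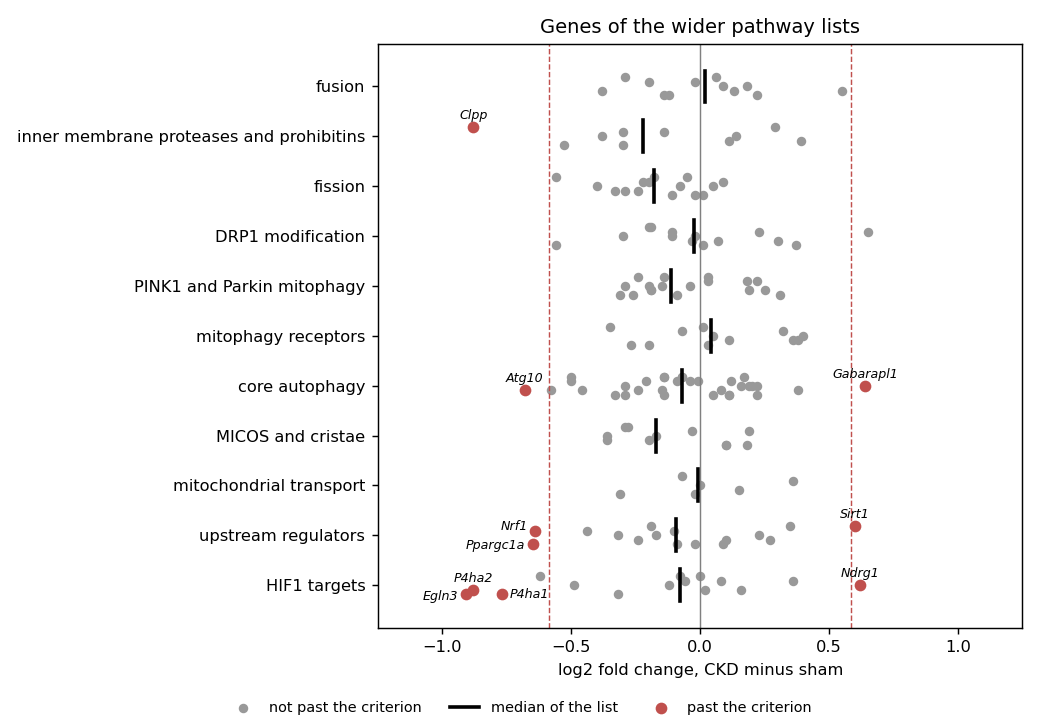
Log2 fold change (x axis, CKD minus sham) of each measured gene of the wider pathway lists (rows, members included where a list holds them); red points passed the criterion, grey points did not, black bars give the median of a list and dashed lines a 1.5-fold change. The 10 genes past the criterion are Clpp, Atg10, Gabarapl1, Ppargc1a, Nrf1, Sirt1, Egln3, P4ha1, P4ha2 and Ndrg1.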

How the data were processed

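Hearts of 3 sham and 3 CKD mice were profiled on Affymetrix Clariom S mouse arrays from 250 ng of total RNA each. The authors deposited log2 levels with 2 decimals, computed by robust multiarray averaging (RMA, whose version is not given in the sources used here) and without detection calls, so a dim gene could not be told from an absent one. The platform annotation gave a single gene symbol for 19572 of the 22206 probe sets and several for 0, and 2634 had no name here. Where several probe sets stood for 1 gene (55 genes), the brightest was used, giving 19505 genes.

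The groups were compared in limma 3.58.1 (lmFit, eBayes; R 4.3.3) without covariates, and p was adjusted by Benjamini-Hochberg over all genes. The limits of the methods (fold change over 1.5, p under 0.05) served as the criterion, and the methods name no adjustment. Whether each heart came from a separate litter or cage is not stated, and the number of arrays limits the precision. Genes named are the 10 members, every gene of a pathway list past the criterion or else its smallest p, and Ppargc1a and Nrf1; Yme1l1, Phb, Bnip3l, Hif1a, Map1lc3a, Map1lc3b, Gabarapl2, Uty, Eif2s3y and Kdm5d were named after their values were seen. The members and lists were chosen with earlier results of these data known. The fit was tested on simulated data. As alternatives, the test was replaced by the methods' t-test, by trended robust eBayes or by a fit with array weights, the values were normalized once more (quantile, cyclic loess or median), the 25% or 50% dimmest genes were dropped, probe sets were averaged, the replicate number entered as a block, each array was left out, other limits were set and, chosen after seeing the data, sham replicate 1 and CKD replicate 3 left out together. Figures were drawn with matplotlib 3.10.9.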

Additional observations from a re-analysis of the deposited data

How the results depend on the processing

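Across the alternatives tried, none of the 9 genes was higher past the criterion and Fis1 alone was lower, without CKD replicate 1. With 1 array left out, the count of lower genes ran from 0 to 1 and the median log2 fold change from -0.09 to 0.12, and array weights gave a median of 0.06. The sign turned for Dnm1l with array weights (0.06), quantile normalization again (0.01) and cyclic loess (0.01), for Mff with quantile normalization again (0.03), and for Mfn2 without sham replicate 1 and CKD replicate 3 (-0.19). With 1 array left out, the log2 fold change ran from -0.06 to 0.51 for Mfn1, from -0.05 to 0.29 for Mfn2, from -0.12 to 0.12 for Dnm1l, from -0.78 to 0.09 for Bnip3 and from -0.12 to 0.22 for Fundc1. Opa1, Oma1 and Fis1 kept their sign under all 17 alternatives.

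The pathway genes counted as higher ran from 0 to 7 and as lower from 5 to 12 with 1 array left out. The methods' t-test gave 1 higher and 4 lower, array weights 6 higher and 10 lower, and the pair of arrays left out together 0 higher and 10 lower. At an adjusted p under 0.05, as at a fold change over 2, 0 were higher and 0 lower. The cause of these shifts was not tested. With the replicate number as a block, no member passed, and 4 pathway genes were higher and 6 lower. Samples with the same number did not deviate together (correlations of -0.184, -0.025 and -0.187), but so few arrays cannot exclude a paired design. A figure caption of the paper speaks of 3 pairs of sham and CKD mice and does not say how they were matched. The main comparison took the hearts as unpaired. Without detection calls, low levels could not be set against background.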

Other observations

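Genes of the LC3 family, which the mitophagy receptors bind, differed in how they varied between hearts. Map1lc3a had log2 levels of 12.34, 13.71 and 13.56 in sham replicates 1 to 3 and of 13.53, 12.14 and 12.44 in CKD replicates 1 to 3, so that sham replicate 1 and CKD replicates 2 and 3 were low for it as for Bnip3. Its log2 fold change was -0.50 (SE 0.44). Map1lc3b did not follow Bnip3: it was lowest in sham replicate 1 (13.28) and in CKD replicate 1 (13.48), the heart with the highest Bnip3, and highest in sham replicate 3 (14.51), with a log2 fold change of -0.29 (SE 0.32), and Gabarapl2 was lowest in the same pair (8.71 and 8.79). Hif1a, the oxygen-sensed factor above Bnip3, was high where Bnip3 was low, with 12.17, 11.41 and 11.72 in sham and 11.39, 12.03 and 12.16 in CKD hearts. These genes were picked after their values were seen, and no test was made of the likeness.

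Among all genes, those whose pattern over the 6 arrays was most like that of Oma1, the member with the smallest p, were Wdr83os (r = 0.994), Dynll1 (r = 0.988) and Trmt112 (r = 0.988), as a description of 6 arrays in a search of 19504 genes.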
